A study of Rattus norvegicus with 6 samples.

Results

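CC chemokines are small secreted proteins, named for a pair of adjacent cysteines, that guide leukocytes by acting on G protein-coupled receptors of the CCR family. In a healing fracture, macrophages, stromal cells and osteoblast-lineage cells are known sources of them, and monocytes, T cells, dendritic cells and eosinophils are among the cells that respond. The genes described are 9 ligands, Ccl2, Ccl7, Ccl3, Ccl4, Ccl5, Ccl17, Ccl22, Ccl20 and Ccl24, and a receptor, Ccr2. They were chosen by name, as 10 symbols looked up among the 34538 genes of the deposited tables. A row was found for 9 of the 10, each symbol having 1 row. No row of these tables carried the name Ccr2, the receptor through which Ccl2 and Ccl7 recruit monocytes. A short protein-coding row named AABR07071838.1, of 286 bases, is described in the tables by its likeness to the rat CCR2 protein and held 0 to 17 counts per library. It was not used in place of Ccr2.

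RNA came from the femoral fracture site of female Sprague Dawley rats that had both ovaries removed when 8 weeks old, a model of osteoporosis. After 12 more weeks the midshaft of the left femur was cut and stabilised with a 1.2 mm intramedullary nail, and messenger RNA of the 1 cm of bone spanning the cut was sequenced after poly-T selection. All 6 libraries share the ovariectomy, the osteotomy and the nail. Gel only was injected around the fracture in 3 of them (Gel, labelled as the control), and MgPA-Gel, which by the series title is an adhesive hydrogel holding coordination compounds of a plant phosphate, in the other 3 (MgPA-Gel). No group without gel was analysed here, and how long after injury the bone was taken is not stated in the labels. Whether each library is a different rat is not stated, so every p-value refers only to the spread among these libraries, part of which may be technical.

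Depth was 13.6 to 18.2 M (mega) counts per library. Mitochondrial transcripts made up 24.0% of the reads counted in Gel 1 and 25.9% of those in MgPA-Gel 1, against 5.29% to 8.83% in the other 4 libraries. The bone label held in each library, with Col1a1, the main collagen chain of bone, at 31265 to 98357 CPM (normalised counts per M counts). Muscle was uneven, with 8 skeletal muscle fibre markers that had a row summing to 37079 CPM in MgPA-Gel 1, 1380 in MgPA-Gel 3, 101 in MgPA-Gel 2 and 10.3 to 490 in Gel. Levels are given for libraries 1, 2 and 3 of a group in that order, in CPM or, where genes are compared with each other, FPKM, which also divides by gene length. Log2 fold changes are of MgPA-Gel over Gel, given ± SE.

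The 9 ligands lie in small clusters. In the deposited table, Ccl2 (chromosome 10, 69412017 to 69413870) and Ccl7 (chromosome 10, 69423086 to 69424979) are neighbours on the plus strand, 9.21 kb apart with 0 genes between. Ccl5 (chromosome 10, 70739800 to 70744315), Ccl3 (chromosome 10, 70869513 to 70871066) and Ccl4 (chromosome 10, 70884531 to 70886355) lie further along, with Ccl6 and Ccl9 among the genes between Ccl5 and Ccl3. Ccl17 (chromosome 19, 10619220 to 10620671) and Ccl22 (chromosome 19, 10674189 to 10681145) are 53.5 kb apart on the minus strand. Ccl20 (chromosome 9, 88918433 to 88921001) and Ccl24 (chromosome 12, 24148567 to 24152625) stand alone. No genome build is named for these coordinates in the labels. All 9 are annotated as protein-coding genes.

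Promoter sequences were at hand for 5 of the 9 ligands in RefSeq's table for the build GRCr8, Ccl7, Ccl17, Ccl22, Ccl20 and Ccl24. The 250 bases before the start site of 4 of them are printed because these genes stood for different patterns over libraries. Ccl7 and Ccl20 had both libraries numbered 2 above all others, Ccl17 was apart between the groups, and Ccl24 had a higher mean in Gel. Ccl24 too was highest in the library numbered 2 of each group, but its level in Gel 1 lay above that in MgPA-Gel 2. Each runs 5′ to 3′ in the direction of the gene, and capitals mark the matches found. Both strands were searched for the NF-kappaB consensus, the AP-1 site TGANTCA, the STAT motif (TTC and GAA with 4 bases between) and the TATA box TATAAA. The letters of the NF-kappaB consensus are not given here, and a site that fits only another form of it would be unmarked.

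Ccl7: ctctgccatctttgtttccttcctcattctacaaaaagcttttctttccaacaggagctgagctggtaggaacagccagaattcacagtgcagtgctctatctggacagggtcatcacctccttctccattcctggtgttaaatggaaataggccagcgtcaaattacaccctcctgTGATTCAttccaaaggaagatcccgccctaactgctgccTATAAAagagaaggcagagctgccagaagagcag
Ccl20: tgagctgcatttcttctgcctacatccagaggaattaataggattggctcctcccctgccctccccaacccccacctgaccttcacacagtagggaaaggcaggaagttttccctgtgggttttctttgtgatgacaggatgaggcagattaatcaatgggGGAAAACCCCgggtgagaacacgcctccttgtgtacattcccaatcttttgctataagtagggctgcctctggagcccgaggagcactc
Ccl17: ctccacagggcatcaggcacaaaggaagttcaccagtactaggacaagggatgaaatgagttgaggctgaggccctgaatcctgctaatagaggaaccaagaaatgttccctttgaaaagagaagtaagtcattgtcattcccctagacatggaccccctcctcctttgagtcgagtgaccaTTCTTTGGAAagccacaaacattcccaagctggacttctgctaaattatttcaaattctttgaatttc
Ccl24: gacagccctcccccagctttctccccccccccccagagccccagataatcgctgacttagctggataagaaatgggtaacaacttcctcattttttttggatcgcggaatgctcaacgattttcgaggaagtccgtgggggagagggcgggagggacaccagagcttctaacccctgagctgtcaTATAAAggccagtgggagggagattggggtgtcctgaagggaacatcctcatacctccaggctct

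The Ccl7 stretch (chr10:67513845-67514094, plus strand) held an AP-1 match at -73 to -67 and a TATA box at -34 to -29 from the start site. The Ccl20 stretch (chr9:91836909-91837158, plus strand) held an NF-kappaB consensus match at -89 to -80, read on the strand opposite to the gene. The Ccl17 stretch (chr19:10209896-10210145, minus strand) held a STAT match at -68 to -59, and the Ccl24 stretch (chr12:26737173-26737422, plus strand) a TATA box at -65 to -60. None of the 4 motifs was found in the Ccl22 stretch (chr19:10270360-10270609, minus strand), which says only that these letters are not in this window. No match overlapped another. Over 33469 promoters of the same length, the NF-kappaB consensus was found in 3.54%, the AP-1 letters in 6.34%, the STAT letters in 6.25% and the TATA letters in 12.9%. A match is a run of letters and not a shown binding site.

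Ccl2 and Ccl7, the monocyte chemoattractant proteins, were the most abundant of the 9 ligands per length in each of the 6 libraries, in that order. Ccl2 made up 36.2% to 55.8% of the summed FPKM of the 9 ligands, and Ccl7 19.2% to 32.4%. That sum itself ran from 29.8 FPKM in Gel 3 to 809 in MgPA-Gel 2. The makeup below these 2 genes changed with the library. Ccl3 came next in Gel 1, MgPA-Gel 1 and MgPA-Gel 3, Ccl20 in Gel 2 and MgPA-Gel 2, and Ccl5 in Gel 3, where Ccl20 had no count.

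**Figure D1:**
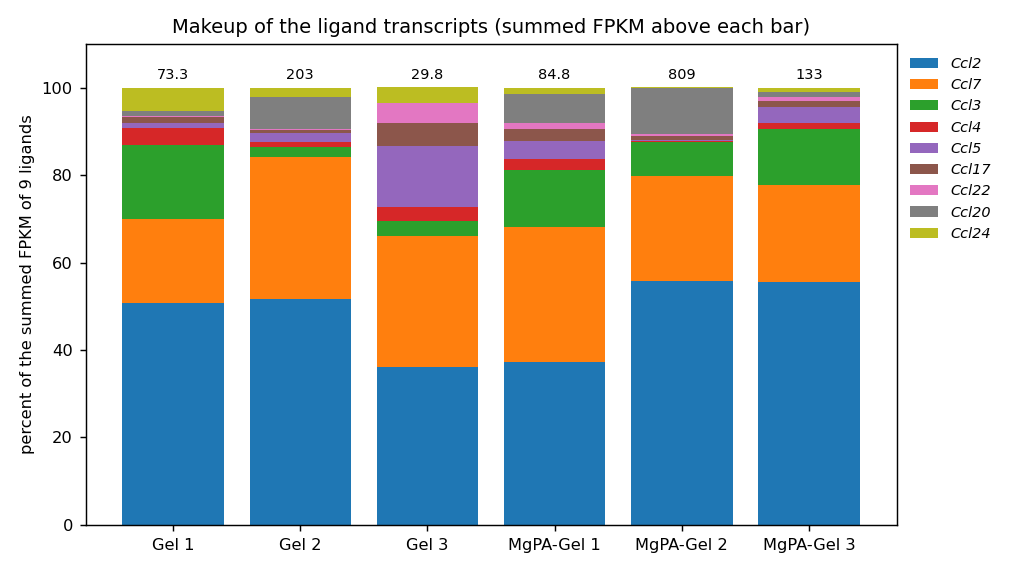
Share of the summed FPKM of the 9 ligands (vertical axis, percent) held by each ligand (colours) in each of the 6 libraries (horizontal axis), with the summed FPKM above each bar. Ccl2 and Ccl7 fill most of each bar, and the sum is 809 FPKM in MgPA-Gel 2 against 29.8 to 203 in the other libraries.

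Ccl2, which draws monocytes through Ccr2, stood at 30.8, 87.5 and 9.01 CPM in the Gel libraries and at 26.4, 379 and 61.2 in the MgPA-Gel libraries. Ccl7, its neighbour and a ligand of Ccr2 as well as of other CC receptors, stood at 11.9, 55.7 and 7.55 CPM in the Gel libraries and at 22.2, 166 and 24.9 in the MgPA-Gel libraries. For both genes MgPA-Gel 2 was the highest library, Gel 2 the next and Gel 3 the lowest, and the groups overlapped. MgPA-Gel 2 was 4.34 times the next library for Ccl2 and 2.98 times for Ccl7. It held 81.2% of the summed CPM of Ccl2 in MgPA-Gel, and Gel 2 held 68.7% of that in Gel. The group means of Ccl2 were 42.4 ± 40.5 CPM in Gel and 156 ± 195 in MgPA-Gel (SD, n = 3 each), a log2 fold change of 1.87 ± 1.21 that was not past the threshold (edgeR quasi-likelihood test, adjusted p = 0.998). Those of Ccl7 were 25.0 ± 26.6 and 71.1 ± 82.3 CPM, a log2 fold change of 1.50 ± 1.10 (edgeR, adjusted p = 0.998). Leaving out MgPA-Gel 2 gave log2 fold changes of 0.04 and -0.09, and leaving out Gel 2 gave 2.97 and 2.87.

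The threshold was an adjusted p of 0.05 by the method of Benjamini and Hochberg over all genes tested. Of 14818 genes tested, 0 (0%) passed it in either direction, with 389 at an unadjusted p under 0.05 (2.63%, of which 1.78% higher in MgPA-Gel and 0.844% lower). Among the ligands 8 had enough counts to be tested and 1, Ccl17, did not. Of the 8, 0 passed the threshold and 0 were at an unadjusted p under 0.05. DESeq2 also called 0 of the 9 it tested, limma-voom 0 of 8, and limma on log2 FPKM 0 of 9, with 2, 0 and 1 to 2 ligands at an unadjusted p under 0.05. Over all genes, DESeq2 had 778 of 21806 at that level, limma-voom 245 of 14818 and limma on log2 FPKM 382 to 434. A higher mean in MgPA-Gel was seen in 6 of the 8 and a lower one in 2 (median log2 fold change 1.35), beside 54.8% of all genes tested with a positive log2 fold change and a median of 0.03. Without MgPA-Gel 2 the split was 4 and 4, with a median of -0.02. In 0 of the 8 did the libraries of the groups stand apart, where 6.88% of all genes tested did, 3.26% with MgPA-Gel higher and 3.62% with it lower.

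The ratio of Ccl2 to Ccl7 kept to a narrow range while both genes moved over more than 20-fold between libraries. It was 2.64, 1.60 and 1.22 in the Gel libraries and 1.21, 2.33 and 2.50 in the MgPA-Gel libraries, on FPKM. The highest library was 42.1 times the lowest for Ccl2 and 22.0 times for Ccl7. The mean ratio was 1.82 ± 0.735 in Gel and 2.01 ± 0.701 in MgPA-Gel (SD, n = 3 each), so the groups differed by less than the spread within them.

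Ccl20, which attracts cells that carry Ccr6, such as T helper 17 cells and immature dendritic cells, had the widest range of the 9. It stood at 0.685, 11.6 and 0 CPM in the Gel libraries, from 10, 201 and 0 counts, and at 4.38, 67.3 and 1.23 CPM in the MgPA-Gel libraries, from 70, 1067 and 21 counts. The libraries numbered 2 were again the highest of their groups, holding 94.4% of the summed CPM in Gel and 92.3% in MgPA-Gel, and the groups overlapped. Against the limit that a count of 0 allows in Gel 3 (3 counts per library, 0.220 CPM), MgPA-Gel 2 was at least 306-fold higher and Gel 2 at least 52.8-fold higher; this limit covers counting error only. The group means were 4.10 ± 6.51 and 24.3 ± 37.3 CPM (SD, n = 3 each), with a log2 fold change of 2.55 ± 1.99 (edgeR, adjusted p = 0.998). Leaving out MgPA-Gel 2 gave -0.56, and leaving out Gel 2 gave 6.09. Its receptor Ccr6 was also highest in MgPA-Gel 2, at 4.04 CPM, and stood at 0 to 1.62 CPM in the other libraries.

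**Figure D2:**
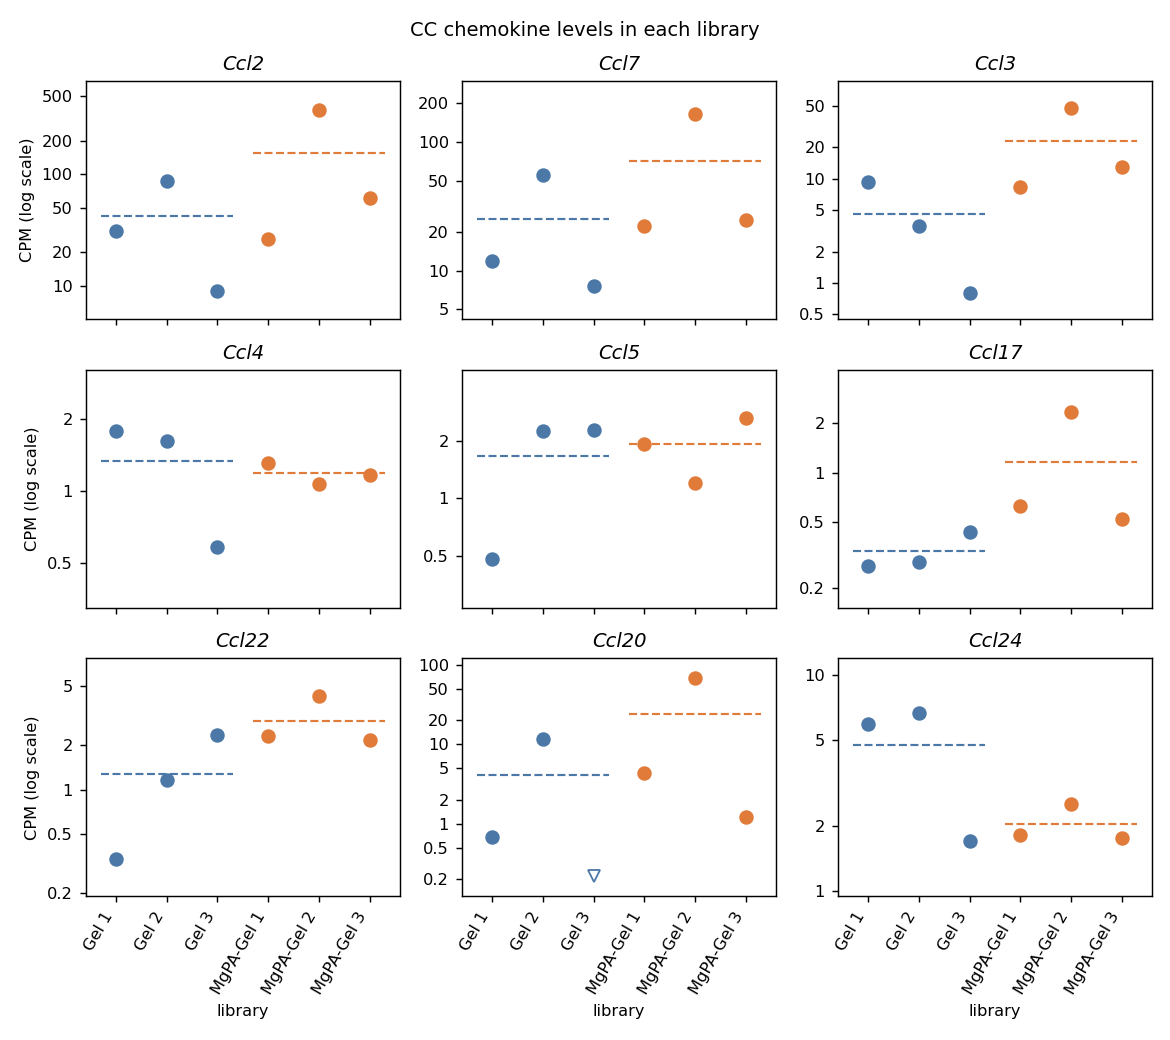
Level of each of the 9 ligands in CPM (vertical axes, log scale, each with its own range) in each library (horizontal axes), with Gel in blue, MgPA-Gel in orange and dashed lines at the group means. The open triangle is the Ccl20 count of 0 in Gel 3, drawn at the level of 3 counts (0.220 CPM). Ccl2, Ccl7, Ccl20 and Ccl24 are highest in the library numbered 2 of each group, and the groups stand apart for Ccl17 alone.

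Ccl3 and Ccl4, the macrophage inflammatory proteins, are close neighbours but did not follow each other. Ccl3, which acts on Ccr1, stood at 9.32, 3.52 and 0.806 CPM in the Gel libraries and at 8.38, 47.9 and 12.8 in the MgPA-Gel libraries. Ccl4 stood at 1.78, 1.62 and 0.586 CPM in the Gel libraries and at 1.31, 1.07 and 1.17 in the MgPA-Gel libraries. MgPA-Gel 2 was the highest library for Ccl3 and the second lowest for Ccl4, and Gel 3 was the lowest for both. The ratio of Ccl3 to Ccl4 on FPKM was 1.15 to 4.36 in Gel and 5.32, 37.2 and 9.13 in MgPA-Gel 1, 2 and 3. All 3 MgPA-Gel libraries thus lay above all 3 Gel libraries in this ratio, which was looked at after the values were seen and was not tested.

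For Ccl3 the group means were 4.55 ± 4.35 and 23.0 ± 21.6 CPM (SD, n = 3 each). The log2 fold change was 2.34 ± 1.01 (edgeR, adjusted p = 0.998, unadjusted p = 0.0588). The groups overlapped, with Gel 1 above MgPA-Gel 1. Without MgPA-Gel 2 the log2 fold change was 1.22, and without both libraries of high mitochondrial share, Gel 1 and MgPA-Gel 1, it was 3.75. For Ccl4 the means were 1.33 ± 0.648 and 1.19 ± 0.121 CPM, a log2 fold change of -0.17 ± 0.53 (edgeR, adjusted p = 0.998). Ccl4 rested on 8 to 28 counts per library. An antisense row, AC114233.1, lies within the span of Ccl3 on the other strand, with 0, 2 and 0 counts in the Gel libraries and 19, 51 and 3 in the MgPA-Gel libraries. The labels do not state whether the counting used strand, so reads of the Ccl3 gene and of this row cannot be told apart.

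Ccl5, which draws T cells and monocytes through receptors that include Ccr1 and Ccr3, was low. It stood at 0.480, 2.25 and 2.27 CPM in the Gel libraries and at 1.94, 1.20 and 2.63 in the MgPA-Gel libraries, from 7 to 45 counts. Gel 1 was the lowest library and the other 5 lay within 1.20 to 2.63 CPM, with MgPA-Gel 2 the second lowest. The means were 1.67 ± 1.03 and 1.92 ± 0.717 CPM (SD, n = 3 each), a log2 fold change of 0.20 ± 0.65 (edgeR, adjusted p = 0.998). Its sign turned when Gel 1 (-0.23), MgPA-Gel 3 (-0.09) or both libraries of high mitochondrial share (-0.25) were left out.

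Ccl17 and Ccl22, the ligands of Ccr4 on type 2 and regulatory T cells, were both highest in MgPA-Gel 2. Ccl17 stood at 0.274, 0.289 and 0.440 CPM in the Gel libraries, from 4, 5 and 6 counts, and at 0.625, 2.33 and 0.527 CPM in the MgPA-Gel libraries, from 10, 37 and 9 counts. All 3 MgPA-Gel libraries lay above all 3 Gel libraries, by a narrow margin outside MgPA-Gel 2. Over the 21806 genes with any count, 6.17% stood apart between the groups in either direction. The means were 0.334 ± 0.0917 and 1.16 ± 1.02 CPM (SD, n = 3 each; exact two-sided permutation p = 0.1 on log2(CPM + 0.1), the smallest that 3 against 3 can give). With no filter on counts, edgeR gave Ccl17 a log2 fold change of 1.78 ± 0.85 (adjusted p = 0.946).

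Ccl22 stood at 0.343, 1.16 and 2.35 CPM in the Gel libraries and at 2.31, 4.29 and 2.17 in the MgPA-Gel libraries. Gel 3 lay just above MgPA-Gel 1 and 3, so the groups overlapped. The means were 1.28 ± 1.01 and 2.92 ± 1.19 CPM (SD, n = 3 each), a log2 fold change of 1.19 ± 0.70 (edgeR, adjusted p = 0.998), and it was 1.92 without Gel 3 and 0.74 without Gel 1. Per length Ccl22 was below Ccl17 in each library, with a ratio of 0.202 to 0.862 on FPKM. That order rests on the annotated lengths, 1745 bases for Ccl22 and 282 for Ccl17. In CPM, Ccl22 was above Ccl17 in each library. Ccr4, the receptor of both, was at 0 to 1.64 CPM.

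Ccl24, the eotaxin that draws eosinophils through Ccr3, was the tested ligand with the lowest log2 fold change. It stood at 5.89, 6.64 and 1.69 CPM in the Gel libraries and at 1.81, 2.52 and 1.76 in the MgPA-Gel libraries. Gel 1 and Gel 2 lay above the other 4 libraries, and Gel 3 was the lowest of all, so the groups overlapped. The means were 4.74 ± 2.67 and 2.03 ± 0.428 CPM (SD, n = 3 each). The log2 fold change was -1.22 ± 0.55 (edgeR, adjusted p = 0.998, unadjusted p = 0.0618). It stayed negative in all 20 other settings tried, from -1.64 without Gel 3 to -0.72 on log2(FPKM + 1), with an adjusted p of 0.936 or more. Eosinophil markers had few counts, and their order over the libraries was not that of Ccl24. The eosinophil peroxidase Epx was at 1.85, 0 and 0.440 CPM in the Gel libraries and at 0.750, 0.0631 and 0.0585 in the MgPA-Gel libraries, and the 4 markers of the list summed to 8.43 CPM in Gel 1 but 0.173 in Gel 2. In the MgPA-Gel libraries that sum was 5.06, 0.505 and 0.0585 CPM. All 4 had too few counts to be tested. With no filter on counts, edgeR gave all 4 a lower mean in MgPA-Gel, as for Ccl24 (median log2 fold change -1.16). Of all 21806 genes in that fit, 9956 were lower, and 0 of the 4 markers were at an unadjusted p under 0.05.

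**Figure D3:**
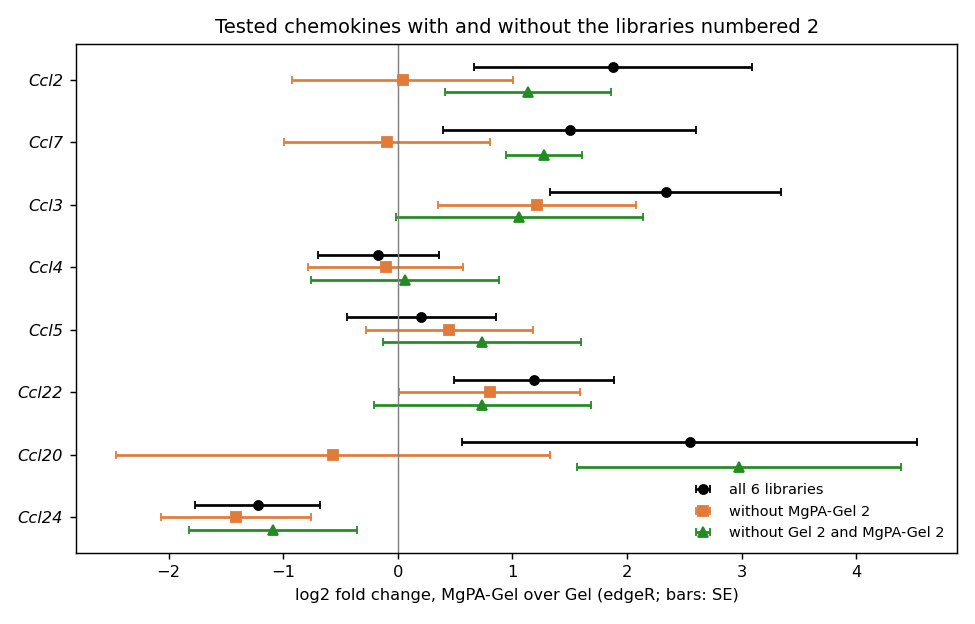
Log2 fold change of MgPA-Gel over Gel (horizontal axis, edgeR, bars SE) of the 8 tested ligands (vertical axis) with all 6 libraries (black), without MgPA-Gel 2 (orange) and without both libraries numbered 2 (green). Without MgPA-Gel 2, Ccl2 and Ccl7 move from 1.87 and 1.50 to 0.04 and -0.09, and Ccl24 remains below 0 in all 3.

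The libraries numbered 2 were left out together as a choice made after the data were seen. Log2 fold changes were then 1.14 ± 0.73 for Ccl2, 1.28 ± 0.33 for Ccl7, 2.98 ± 1.41 for Ccl20 and 1.06 ± 1.08 for Ccl3, with 2 libraries a group and an adjusted p of 0.999 for each in edgeR. The labels do not tie libraries of the same number to each other. Ccl5, Ccl4 and Ccl24 did not share the high level of MgPA-Gel 2, which was the highest library for the other 6 ligands.

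Levels of immune cell markers also differed between the libraries. The 12 monocyte and macrophage markers with a row summed to 3996, 6499 and 2788 CPM in the Gel libraries and to 3345, 7484 and 3680 in the MgPA-Gel libraries, highest in the libraries numbered 2 as Ccl2 was. Lysozyme, Lyz2, which neutrophils also make, was the most abundant of them in each library, at 5158 and 6188 CPM in Gel 2 and MgPA-Gel 2 and at 1608 to 2618 in the rest. Csf1r, the receptor of the macrophage growth factor CSF1, and Cd68, a lysosomal macrophage protein, went otherwise. They stood at 287 and 148 CPM in MgPA-Gel 2, the lowest of the 6 libraries, and at 831 and 430 in MgPA-Gel 3, the highest. None of the 12 was past the threshold; 11 had a higher mean in MgPA-Gel and 1 a lower. Their median log2 fold change was 0.25, beside 0.03 over all genes tested. It ran from 0.19 with upper-quartile scaling to 0.39 without Gel 2. At an unadjusted p under 0.05 were 2 of the 12, and in 1, C1qc, a complement subunit named after its values were seen, the groups stood apart, beside 2.63% and 6.88% of all genes tested. In bulk tissue, fewer cells of a type and less RNA per cell cannot be told apart.

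Ccl2 was also set against the summed macrophage markers, of which Lyz2 was the largest part (6188 of the 7484 CPM in MgPA-Gel 2). Per 1000 CPM of those markers there were 7.70, 13.5 and 3.23 CPM of Ccl2 in the Gel libraries and 7.88, 50.7 and 16.6 in the MgPA-Gel libraries. As for the level itself, MgPA-Gel 2 was highest and Gel 3 lowest. Ccl20 per 1000 CPM of the same markers was 9.0 in MgPA-Gel 2, 1.79 in Gel 2 and 0 to 1.31 in the other 4. The part of macrophages in these values was not tested.

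Neutrophil markers, of which 9 were measured, summed to 199, 288 and 67.3 CPM in the Gel libraries and to 783, 2755 and 197 in the MgPA-Gel libraries. Their lowest and highest libraries were those of the ligands' sum, Gel 3 and MgPA-Gel 2, and their next highest was MgPA-Gel 1, a library in the lower part of the order of the ligands' sum. S100a9 and S100a8, the calprotectin subunits, and Csf3r, the receptor of the neutrophil growth factor, led the list, with Csf3r at 628 CPM in MgPA-Gel 2 and 5.94 to 44.8 in the others. The granule protein genes Ngp and Camp did not share this peak. Mmp8, a gene of another granule protein, did, at 135 CPM in MgPA-Gel 2 and 4.10 to 33.0 elsewhere. These genes were named after their values were seen. Ngp was at 3.85 CPM in MgPA-Gel 2, against 13.8 in Gel 1 and 17.9 in MgPA-Gel 1, with a log2 fold change of 0.03 ± 0.97 (edgeR, adjusted p = 0.998). Camp was at 6.44 CPM in MgPA-Gel 2, against 8.98 in Gel 1 and 31.8 in MgPA-Gel 1, and Ltf, lactoferrin, had 0 to 1 counts per library. Of the 7 tested, 0 passed the threshold, 3 were at an unadjusted p under 0.05, and all 7 had a higher mean in MgPA-Gel (median log2 fold change 2.68), beside 2.63% and 54.8% of all genes tested. With library totals or upper-quartile scaling 6 of 7 were higher, and without MgPA-Gel 1 it was 5 of 7. The median was 1.04 without MgPA-Gel 2. Per 1000 CPM of the summed neutrophil markers there were 155, 304 and 134 CPM of Ccl2 in the Gel libraries and 33.7, 138 and 310 in the MgPA-Gel libraries. On this scale MgPA-Gel 2 lay among the Gel libraries, and MgPA-Gel 1 was the lowest. The part of these cells in the chemokine values was not tested.

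T and NK cell markers summed to 37.8, 67.9 and 25.1 CPM in the Gel libraries and to 54.9, 93.8 and 43.4 in the MgPA-Gel libraries, and 9 dendritic cell markers to 154 to 193 CPM in the Gel and 92.0 to 257 in the MgPA-Gel libraries. Both sums were highest in MgPA-Gel 2 and next highest in Gel 2. Of 12 T and NK markers tested, 0 passed the threshold and 0 were at an unadjusted p under 0.05. The means of all 12 were higher in MgPA-Gel (median log2 fold change 0.48), beside 54.8% of all genes tested. With upper-quartile scaling 10 of 12 were higher, without MgPA-Gel 2 it was 8 of 13, with a median of 0.14, and without Gel 2 it was 13 of 14, with a median of 1.22. Without MgPA-Gel 1 the median of the 13 then tested was 0.88. Cd8a, the co-receptor of cytotoxic T cells, stood at 11.7 ± 6.61 and 14.3 ± 5.50 CPM, Lck, the kinase of the T cell receptor, at 9.47 ± 3.19 and 9.66 ± 0.471, both as mean ± SD of 3 libraries a group, Gel first. Il2rb, a subunit of the IL-2 receptor, lay at 1.25 to 4.85 CPM in Gel libraries and 2.98 to 19.8 in MgPA-Gel libraries. Of the 9 dendritic cell markers, 0 passed, 0 were at an unadjusted p under 0.05, 3 had a higher and 6 a lower mean, and the median was -0.08. Without Gel 2 the split turned to 6 and 3 (median 0.15), without MgPA-Gel 3 to 5 and 4 (0.02), and without MgPA-Gel 2 it was 1 and 8 (-0.28). Fscn1 and Cd83, genes of mature dendritic cells that other cells also use, and Itgae, the integrin of resident cells, were its most abundant. Of 8 muscle fibre markers tested 0 passed the threshold and 2 were at an unadjusted p under 0.05, beside 2.63% of all genes tested. All 8 had a higher MgPA-Gel mean (median 5.77, and 1.33 without MgPA-Gel 1), beside 54.8% of all genes tested. Of 7 osteoblast and bone matrix markers 0 passed, 0 were at an unadjusted p under 0.05, 3 had a higher and 4 a lower mean, and the median was -0.04. Without Gel 2 it was 0 and 7 (median -0.27), whereas without Gel 3 or MgPA-Gel 2 it was 6 and 1 (0.28 and 0.12).

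**Figure D4:**
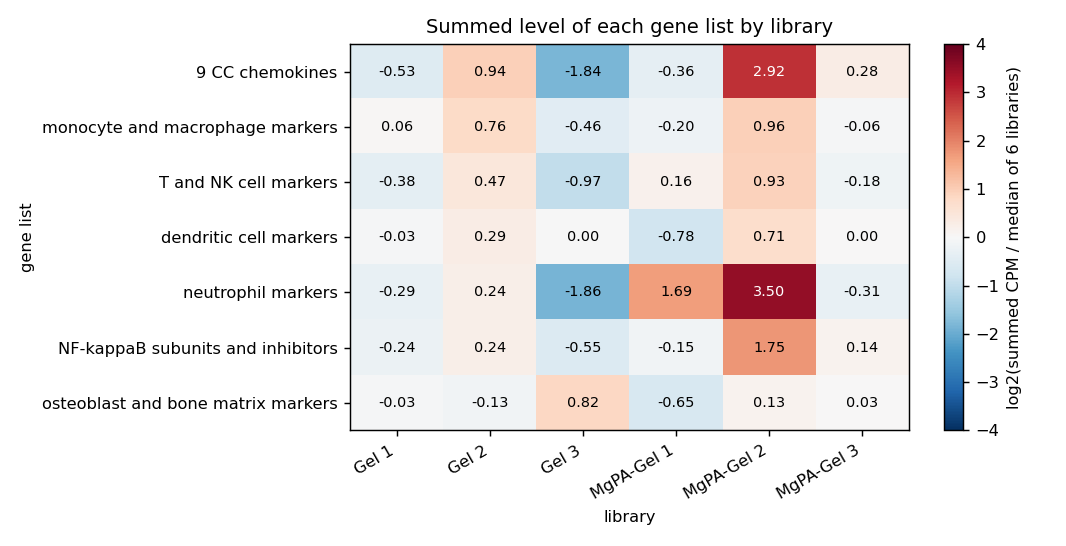
Summed CPM of the 9 ligands and of 6 gene lists (vertical axis) in each library (horizontal axis), as the log2 ratio to the median of the 6 libraries (colour and printed value). The ligands stand at 2.92 in MgPA-Gel 2 and -1.84 in Gel 3, neutrophil markers at 3.50 and -1.86, and NF-kappaB genes at 1.75 and -0.55 in the same libraries.

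Among the other CC chemokines, 11 had a row, 5 were tested and 0 passed the threshold or an unadjusted p under 0.05, 4 had a higher and 1 a lower mean, and the median log2 fold change was 0.66. Leaving out Gel 2 or Gel 1 gave 1.83 or 1.68, each over 6 genes. Leaving out MgPA-Gel 1 or MgPA-Gel 3 gave 1.03 or 0.36, each over 5. Ccl6, a myeloid chemokine of rodents, stood at 15.2, 82.9 and 6.52 CPM in the Gel libraries and at 29.5, 418 and 40.2 in the MgPA-Gel libraries, a log2 fold change of 2.22 ± 1.39 (edgeR, adjusted p = 0.998). Its high and low libraries were those of Ccl2. Ccl9, another rodent chemokine made by macrophages and osteoclasts, differed from it, being highest in MgPA-Gel 3 (171 CPM) and Gel 1 (113 CPM) and at 22.9 to 74.2 CPM elsewhere. Ccl21, which guides cells bearing Ccr7 to lymphoid tissue, was at 24.0 CPM in Gel 3 and 0.959 to 6.07 in the other 5 libraries. Ccl28 was at 0 counts in all 6 libraries, and Ccl1, Ccl11, Ccl19, Ccl25 and Ccl26 had too few counts to be tested.

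Of 14 CC and atypical receptors, 13 had a row, 8 were tested and 0 passed the threshold, 6 had a higher and 2 a lower mean, and the median log2 fold change was 0.72. Without MgPA-Gel 2 it was 4 and 4, with a median of 0.25. The median was 0.41 without Gel 1, and 1.22 to 1.51 without Gel 2, MgPA-Gel 1 or MgPA-Gel 3. These medians are over 9 or 10 receptors, since more passed the count filter, so the list was not the same. Ccr1, a receptor of Ccl3, Ccl5 and Ccl7, stood at 24.0, 32.4 and 14.6 CPM in the Gel libraries and at 19.4, 96.0 and 65.6 in the MgPA-Gel libraries, a log2 fold change of 1.35 ± 0.59 (edgeR, adjusted p = 0.998). Ackr4, an atypical receptor that takes up Ccl19 and Ccl21, was the most even, at 21.8 to 31.5 CPM. In 1 of the 8, Ccrl2, an atypical receptor-like gene, the groups stood apart (2.35 to 4.04 CPM with Gel, 4.38 to 21.9 with MgPA-Gel), where 6.88% of all genes tested did. It was also the single receptor at an unadjusted p under 0.05 in edgeR, beside 2.63% of all genes tested. It was named after its values were seen.

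NF-kappaB is the transcription factor family through which cytokines and microbial products are known to switch on Ccl2, Ccl3, Ccl5 and Ccl20. The mean was higher in MgPA-Gel for all 11 genes of its subunits and inhibitors under each of 4 scalings (median log2 fold change 0.89). Of them 0 passed the threshold and 2 were at an unadjusted p under 0.05. Over all genes tested in the main fit, 54.8% had a positive log2 fold change and 2.63% were at an unadjusted p under 0.05. Without MgPA-Gel 2 the split was 7 higher and 4 lower, and the median was 0.06. All 11 were highest in MgPA-Gel 2, and their sum was 1762 CPM there against 358 to 617 in the other 5 libraries. Nfkbia, the inhibitor that NF-kappaB itself induces, stood at 101, 117 and 65.8 CPM in the Gel libraries and at 128, 450 and 131 in the MgPA-Gel libraries, a log2 fold change of 1.32 ± 0.55 (edgeR, adjusted p = 0.998). Nfkbia and Tnfaip3, a ubiquitin-editing inhibitor named after its values were seen, were the 2 of 11 in which the groups stood apart, where 6.88% of all genes tested did. The subunits Nfkb1 and Rela had log2 fold changes of 0.64 ± 0.46 and 0.31 ± 0.25.

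IL-4 and IL-13, acting through Stat6, are known inducers of Ccl17, Ccl22 and Ccl24 in macrophages, and GM-CSF of Ccl17 and Ccl22. Il4 and Il13 were at 0 counts in all 6 libraries, and Csf2, which encodes GM-CSF, had 0 to 12 counts. Of the 6 genes of this list that were tested, 0 passed the threshold or an unadjusted p under 0.05, 4 had a higher and 2 a lower mean, and the median log2 fold change was 0.31. Without MgPA-Gel 2 it was 2 and 4, with a median of -0.18. The median was 0.18 without Gel 3 and 0.58 without MgPA-Gel 1. Il4r, the shared receptor chain, was at 72.8 to 131 CPM with Gel and at 101 to 333 CPM with MgPA-Gel. Csf2rb, the signalling chain of the GM-CSF receptor, was at 303 CPM in MgPA-Gel 2 and 24.3 to 99.2 in the others, and Csf2ra, its partner, at 52.0 to 128 CPM. In 1 of the 6, Il13ra1, the groups stood apart, with MgPA-Gel lower, where 6.88% of all genes tested stood apart. This receptor chain of IL-13, named after its values were seen, was at 3.87 to 4.98 CPM with Gel and 2.40 to 3.15 with MgPA-Gel. Its log2 fold change was -0.64 ± 0.31 (edgeR, adjusted p = 0.998). DESeq2, limma-voom and limma on log2 FPKM also called 0 genes in each of these pathway and marker lists. At an unadjusted p under 0.05, DESeq2 had 1 of 10 other CC chemokines, 3 of 13 receptors and 3 of 11 NF-kappaB genes. It had 0 of 7 genes of the IL-4, IL-13 and GM-CSF list, and 778 of the 21806 genes in all.

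**Figure D5:**
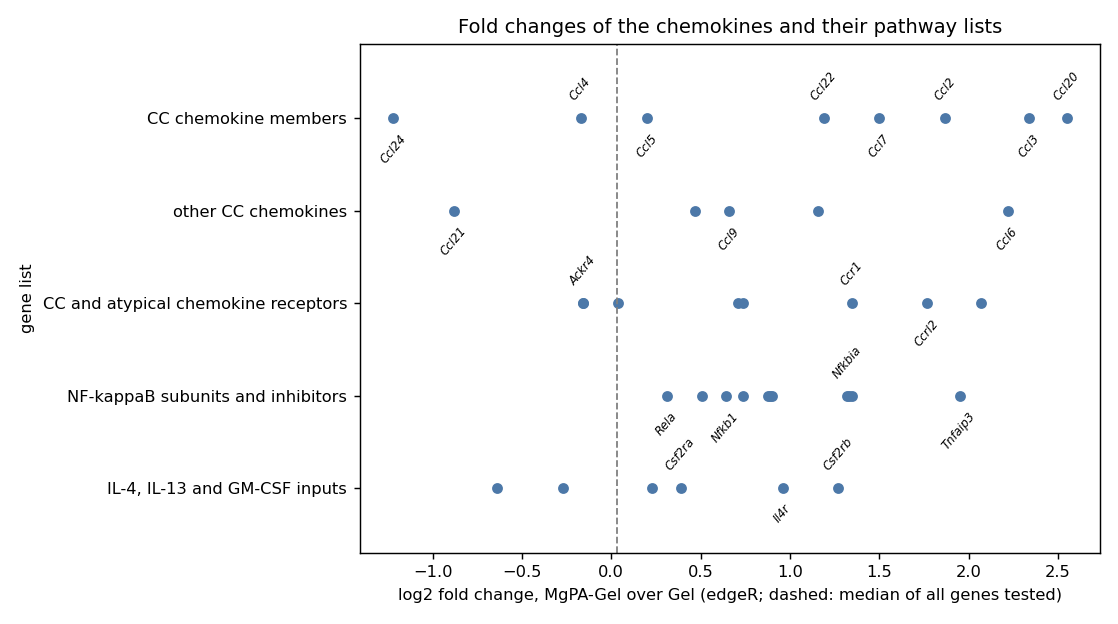
Log2 fold change of MgPA-Gel over Gel (horizontal axis, edgeR) of each tested gene of the chemokine set and of 4 pathway lists (vertical axis), with a dashed line at the median of all genes tested (0.03). The 11 NF-kappaB genes lie between 0.31 and 1.95, and Ccl24 and Ccl21 lie lowest at -1.22 and -0.88.

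Genes whose pattern over the 6 libraries was most like that of Ccl2 were sought among 11453 genes that had a symbol and averaged at least 1 on the log2 CPM scale. The measure was the root-mean-square difference of log2 CPM after subtracting each gene's mean. Closest were Ccl6 (0.42), Ifit3 (0.44), an interferon-induced gene, Clec4d (0.45) and Clec4e (0.46), lectin receptors of myeloid cells, and F2rl2 (0.46), a protease-activated receptor. Clec4e stood at 7.60, 19.2 and 2.64 CPM in the Gel libraries and at 11.4, 206 and 16.3 in the MgPA-Gel libraries. Of the 7 other tested ligands, Ccl7 was the nearest to Ccl2 (0.47), followed by Ccl3 (1.02), and Ccl5 was the farthest (1.91). Nearest to Ccl5 itself were Tenm3 (0.32), Zswim8 (0.34), Zrsr1 (0.34), Dgkb (0.36) and Gdpd1 (0.38), none of them a chemokine. With 6 libraries and this many candidates, such values are a description of these libraries.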

How the data were processed

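Gene counts and FPKM were deposited by the authors for 6 libraries. The authors' count table holds whole, raw counts per gene, and the deposited FPKM are divided by gene length and a library size. Tools named in the submitters' processing notes, without their roles, were fastp, featureCounts 1.5.0-p3, HISAT2 2.0.5, edgeR 3.22.5, DESeq2 1.20.0 and StringTie 1.3.3b. Of 46230 rows of the count table, 11692 were blank and left out. Replicates of a group differed by more than sampling noise. Library totals were 13.6 to 18.2 M, and counting error limits genes of few counts such as Ccl4, Ccl5 and Ccl17.

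The test was edgeR 4.0.16 (R 4.3.3) on counts after filterByExpr, with TMM factors, robust glmQLFit and a two-sided glmQLFTest, adjusted by Benjamini-Hochberg over all genes tested and checked on simulated data. CPM used TMM-adjusted library sizes. Alternatives were other factors and filters, DESeq2 1.42.0, limma 3.58.1 (voom, and log2 FPKM with pseudocounts of 1 and 0.1 on genes of mean FPKM of at least 0.1), a replicate block and left-out libraries. Lists were rerun under these settings as a choice made after seeing the data.

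The members, lists and tests were chosen with earlier results of these data known. Of each list, the 3 tested genes of highest mean CPM are named unless stated otherwise; 1 receptor that this rule takes is not reported here. The nearest genes to Ccr2 were planned but not sought, for want of its row. No row carried the listed symbols Ackr1, Itgam, Myh2 and Myh4.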

Additional observations from a re-analysis of the deposited data

How the results depend on the processing

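The 8 tested ligands kept the sign of their log2 fold change and their side of the threshold in 153 of 160 fits over 20 other settings, and none passed the threshold in any (adjusted p of 0.551 to 1.00). The sign turned in 7: Ccl7 (-0.093) and Ccl20 (-0.56) when MgPA-Gel 2 was left out, Ccl4 (0.094) and Ccl5 (-0.23) when Gel 1 was, Ccl5 (-0.093) when MgPA-Gel 3 was, Ccl5 (-0.25) when both libraries of high mitochondrial share were, and Ccl4 (0.063) when both libraries numbered 2 were, a setting chosen after seeing the data. The cause was not tested. With 1 library left out at a time, Ccl7 ranged from -0.093 to 2.87, Ccl20 from -0.56 to 6.09, Ccl4 from -0.53 to 0.094 and Ccl5 from -0.23 to 0.48. DESeq2 called 8 of all genes, 6 higher and 2 lower, and leaving out 1 library at a time gave 0 to 2, both higher and both with MgPA-Gel 2 left out. No member was among them. With the replicate block 0 genes were called, and Ccl7 and Ccl20 had log2 fold changes of 1.40 ± 0.231 and 2.88 ± 0.495 (edgeR, adjusted p = 0.551 and 0.681, unadjusted p = 0.001 and 0.00144). In that fit 464 of 14818 genes were at an unadjusted p under 0.05. Deviations of same-numbered libraries from their group means correlated over genes at 0.25, 0.20 and -0.03 for numbers 1, 2 and 3. For libraries of different number the correlations were -0.29 to 0.06. These values do not settle whether the numbers pair the samples. The labels do not state it, so the main fit had no block.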

Other observations

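Some chemokine and lymphocyte genes outside the set, picked after their values were seen, had patterns of their own. Ccl11, eotaxin and like Ccl24 a ligand of Ccr3, reached 3.25 CPM in MgPA-Gel 1 and 1.05 CPM in MgPA-Gel 3. Its level in the other 4 libraries was 0.0578 to 0.206 CPM, MgPA-Gel 2 included, unlike Ccl24 and Ccl2. Ccr3 reached 2.38 CPM in MgPA-Gel 1 and 4.29 CPM in MgPA-Gel 2, against 0.220 to 0.809 CPM elsewhere, a log2 fold change of 2.07 ± 0.90 (edgeR, adjusted p = 0.998). Ccr1l1, a rodent gene related to Ccr1, reached 7.0 CPM in MgPA-Gel 2, against 0 to 0.754 CPM elsewhere. Ncr1, an activating receptor of NK cells, reached 3.41 CPM in MgPA-Gel 2, against 0 to 0.750 CPM elsewhere. Ccl11, Ccr1l1 and Ncr1 had too few counts to be tested.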
